A study of Danio rerio with 20 samples.

Results

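The 10 lipoprotein genes described here were apoba, apobb.1, apobb.2, mttp, apoa1a, apoa1b, apoa2, apoc1, apoea and apoeb. They were chosen with earlier results of these data known and were taken by symbol from a table of 32520 gene IDs. All 10 passed the filter on low counts that left 22234 genes for testing. For 9 of them 1 gene ID carried the symbol. No ID carried the symbol apoba, and that gene was read from ENSDARG00000042780, the single ID named APOB in the table of gene names. RNA came from whole larvae of zebrafish. All carried the transgene Tg(fli1:EGFP), by which endothelial cells carry a green fluorescent protein in all 4 genotypes. The genotypes were the double knockout of glo1 and aldh3a1 (labelled DKO), the aldh3a1 knockout (ALDH3A1KO), the glo1 knockout (GLO1KO) and wild type (WT), each with 5 libraries, and the knockout lines were made with CRISPR/Cas9. Larval age, feeding, the number of larvae in a library and the number of independent lines are not stated in the sources used here. The study asks what loss of glyoxalase 1, the methylglyoxal-clearing enzyme, and of an aldehyde dehydrogenase does to larvae.

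Lipoproteins carry lipid through the blood. Apolipoprotein B is the structural protein of the triglyceride-rich particles and of low density lipoprotein, and the microsomal triglyceride transfer protein, encoded by mttp, loads lipid onto it in the endoplasmic reticulum. Apolipoproteins A-I and A-II are the main proteins of high density lipoprotein, and apolipoproteins C and E exchange between particles and steer their breakdown and uptake. In zebrafish larvae these particles are made by the yolk syncytial layer, the liver and the intestine, while apolipoprotein E genes are also expressed by other cells, among them microglia.

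The libraries held 35092716 to 37190519 counts. Levels are given as CPM, counts scaled to the library size with TMM factors, which depend on the length of a transcript, so levels of different genes were not compared. The targeted glo1 transcript was at 4.30 ± 0.724 CPM in DKO larvae, 78.5 ± 2.85 CPM in ALDH3A1KO larvae, 3.66 ± 0.345 CPM in GLO1KO larvae and 66.6 ± 3.88 CPM in wild type (SD, n = 5 each), which matched the labels. Counts of aldh3a1 were not analysed here. The labels do not say that libraries of a genotype came from separate clutches, so the spread that p-values are based on may be a technical one.

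In each of the 3 knockout genotypes apoba, apobb.1, mttp, apoa1b, apoa2 and apoc1 were lower than in wild type. In DKO larvae 6 of the 10 genes fell and 1 rose (edgeR quasi-likelihood test, adjusted p under 0.05), against 26.4% of all tested genes lower and 23.9% higher. In ALDH3A1KO larvae 6 fell and 1 rose, against 32% of all tested genes lower and 29.4% higher. In GLO1KO larvae 6 fell and 0 rose, against 18.1% lower and 14.6% higher. No gene rose in GLO1KO larvae at an unadjusted p under 0.05 either, nor by DESeq2 or limma-voom. The gene that rose in DKO and ALDH3A1KO larvae was apoeb. The median log2 fold change of the 10 genes was -1 in DKO larvae, -0.86 in ALDH3A1KO larvae and -0.68 in GLO1KO larvae, beside 0.01, 0 and -0.01 over all tested genes in the same comparisons. These comparisons share their wild type libraries and are not independent of each other. Fewer cells of a type and less RNA per cell cannot be told apart in RNA of whole larvae.

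**Figure D1:**
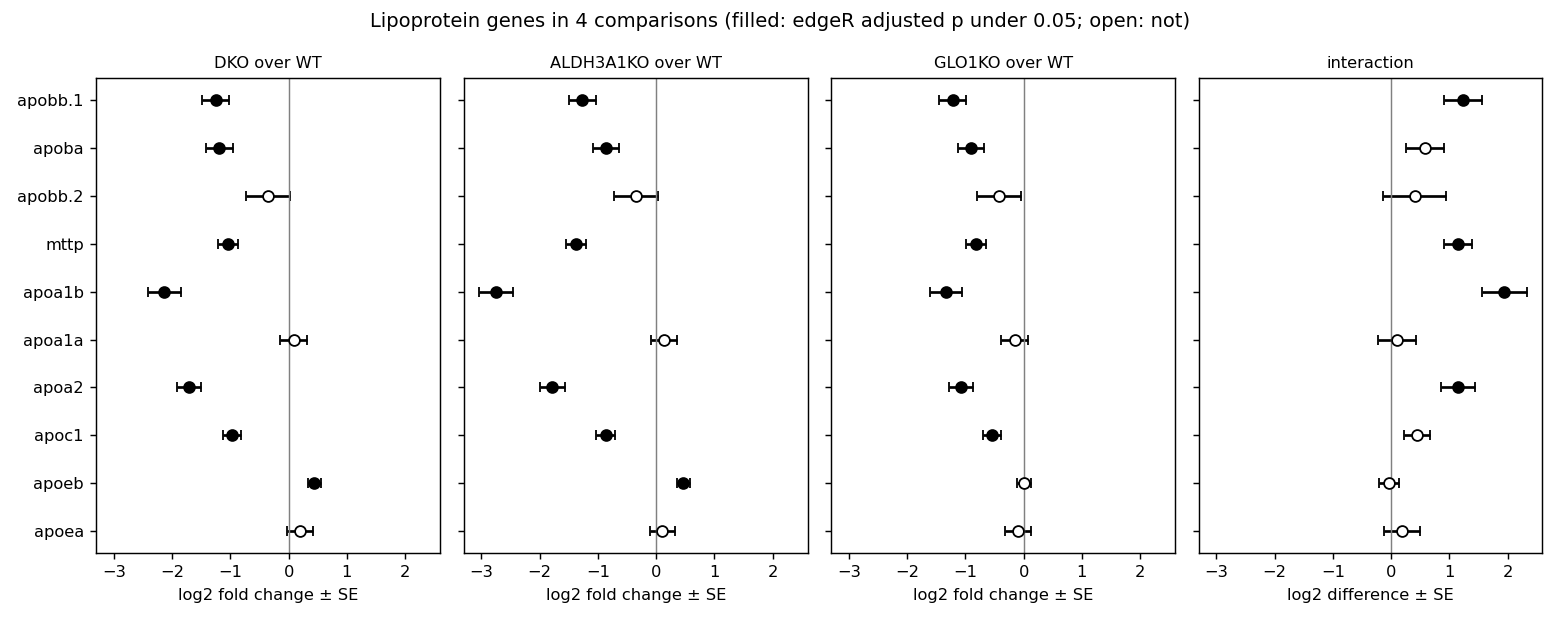
Log2 fold changes with SE for the 10 lipoprotein genes in DKO, ALDH3A1KO and GLO1KO larvae over wild type, and the interaction of both losses (log2 difference). Filled points passed edgeR's adjusted p of 0.05. The points of 6 genes are filled and lie left of 0 in all 3 knockout panels, and apoa1b lies farthest left in each.

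Of the genes for apolipoprotein B, apobb.1 and apoba fell in all 3 knockout genotypes. The level of apobb.1 (ENSDARG00000022767) in replicates 1 to 5 was 83.5, 64.1, 101.6, 116 and 75.8 CPM in DKO larvae, 73.3, 97.5, 69.4, 119.7 and 77.8 in ALDH3A1KO larvae, 83.9, 102.7, 90.2, 89.5 and 86.0 in GLO1KO larvae, and 310.5, 182.5, 121.0, 270.1 and 169 in wild type. Every library of the 3 knockout genotypes lay below every wild type library, although wild type replicate 3, at 121.0 CPM, lay close to the highest library of ALDH3A1KO larvae. Relative to wild type, the log2 fold change of apobb.1 was -1.26 in DKO larvae (SE 0.23, edgeR adjusted p = 0.000261), -1.27 in ALDH3A1KO larvae (SE 0.23, adjusted p = 0.000156) and -1.22 in GLO1KO larvae (SE 0.23, adjusted p = 0.000937). The 3 knockout means, 88.2 ± 20.8, 87.5 ± 21.0 and 90.5 ± 7.30 CPM, lay within each other's spread, below 211 ± 77.6 CPM in wild type (SD, n = 5 each).

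The level of apoba was 5.97, 4.76, 4.60, 6.21 and 6.02 CPM in DKO larvae, 4.73, 4.77, 7.75, 11.3 and 6.09 in ALDH3A1KO larvae, 6.17, 7.97, 5.76, 6.94 and 6.73 in GLO1KO larvae, and 19.4, 13.3, 9.26, 12.7 and 8.32 in wild type. DKO and GLO1KO larvae did not overlap with wild type, and ALDH3A1KO replicate 4 did. Over wild type, apoba had a log2 fold change of -1.19 in DKO larvae (SE 0.23, edgeR adjusted p = 0.000261), -0.86 in ALDH3A1KO larvae (SE 0.23, adjusted p = 0.00267) and -0.91 in GLO1KO larvae (SE 0.23, adjusted p = 0.00504). The third gene, apobb.2 (ENSDARG00000075016), had between 8 and 60 counts in a library and overlapped with wild type in every knockout. Its log2 fold change was -0.35 in DKO larvae (95% interval -1.15 to 0.45, edgeR adjusted p = 0.458), -0.34 in ALDH3A1KO larvae (-1.14 to 0.46, adjusted p = 0.444) and -0.42 in GLO1KO larvae (-1.22 to 0.38, adjusted p = 0.418), intervals whose lower limits came close to the change of apobb.1. The 3 genes encode related proteins, and reads that they share may have been counted for any of them.

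The transfer protein gene mttp (ENSDARG00000008637) was at 20.6, 17.6, 23.1, 23.8 and 17.4 CPM in DKO larvae, 13.04, 15.3, 13.1, 20.4 and 19.6 in ALDH3A1KO larvae, 20.1, 30.3, 20.01, 20.1 and 28.9 in GLO1KO larvae, and 47.4, 53.0, 33.4, 40.8 and 36.1 in wild type. All 15 knockout libraries lay below the lowest wild type library. In order of their means, mttp was lowest in ALDH3A1KO larvae (16.3 ± 3.53 CPM), then in DKO larvae (20.5 ± 3.00), GLO1KO larvae (23.9 ± 5.23) and wild type (42.1 ± 8.08). DKO larvae did not pass edgeR's test against either neighbour among the knockouts in this order (adjusted p = 0.175 against ALDH3A1KO larvae and 0.437 against GLO1KO larvae). Over wild type the log2 fold change of mttp was -1.04 in DKO larvae (SE 0.17, edgeR adjusted p = 4.81e-05), -1.37 in ALDH3A1KO larvae (SE 0.17, adjusted p = 1.32e-06) and -0.82 in GLO1KO larvae (SE 0.17, adjusted p = 0.00121).

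Of the genes for apolipoprotein A-I, the scaffold of high density lipoprotein, apoa1b fell most of all 10 genes and apoa1a did not pass the test. The level of apoa1b (ENSDARG00000101324) was 241, 224, 337, 327 and 163 CPM in DKO larvae, 159, 198, 103, 217 and 165 in ALDH3A1KO larvae, 414, 558, 453.5, 454 and 386.5 in GLO1KO larvae, and 1909, 1119, 617, 1157 and 877 in wild type. No knockout library reached the lowest wild type library, and DKO and GLO1KO larvae did not overlap with each other. Relative to wild type, apoa1b stood at 22.7% in DKO larvae (log2 fold change -2.14, SE 0.28, edgeR adjusted p = 1e-05), 14.8% in ALDH3A1KO larvae (-2.75, SE 0.29, adjusted p = 4.19e-07) and 39.9% in GLO1KO larvae (-1.33, SE 0.27, adjusted p = 0.00174).

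The level of apoa1a (ENSDARG00000012076) was 413, 238, 415, 519 and 362 CPM in DKO larvae, 327.5, 507, 214, 540.5 and 423 in ALDH3A1KO larvae, 305, 317, 338, 353 and 335 in GLO1KO larvae, and 470.2, 295.5, 314, 437 and 318 in wild type. The genotypes overlapped throughout. Its log2 fold change was 0.09 in DKO larvae (95% interval -0.40 to 0.57, edgeR adjusted p = 0.781), 0.13 in ALDH3A1KO larvae (-0.35 to 0.62, adjusted p = 0.633) and -0.16 in GLO1KO larvae (-0.64 to 0.33, adjusted p = 0.642). With library totals in place of TMM factors the value in DKO larvae was -0.07, so its sign depends on the scaling.

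Apolipoprotein A-II is the other abundant protein of high density lipoprotein. Its gene apoa2 (ENSDARG00000015866) was at 142, 132, 162, 174 and 117 CPM in DKO larvae, 125, 141, 94.2, 199 and 132 in ALDH3A1KO larvae, 203, 245, 236, 223 and 220.1 in GLO1KO larvae, and 716, 449.5, 292.5, 506 and 413 in wild type. Each knockout library was below each wild type library, and DKO larvae lay wholly below GLO1KO larvae. Over wild type apoa2 had log2 fold changes of -1.71 in DKO larvae (SE 0.21, edgeR adjusted p = 4.66e-06), -1.78 in ALDH3A1KO larvae (SE 0.21, adjusted p = 1.49e-06) and -1.08 in GLO1KO larvae (SE 0.21, adjusted p = 0.000999).

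**Figure D2:**
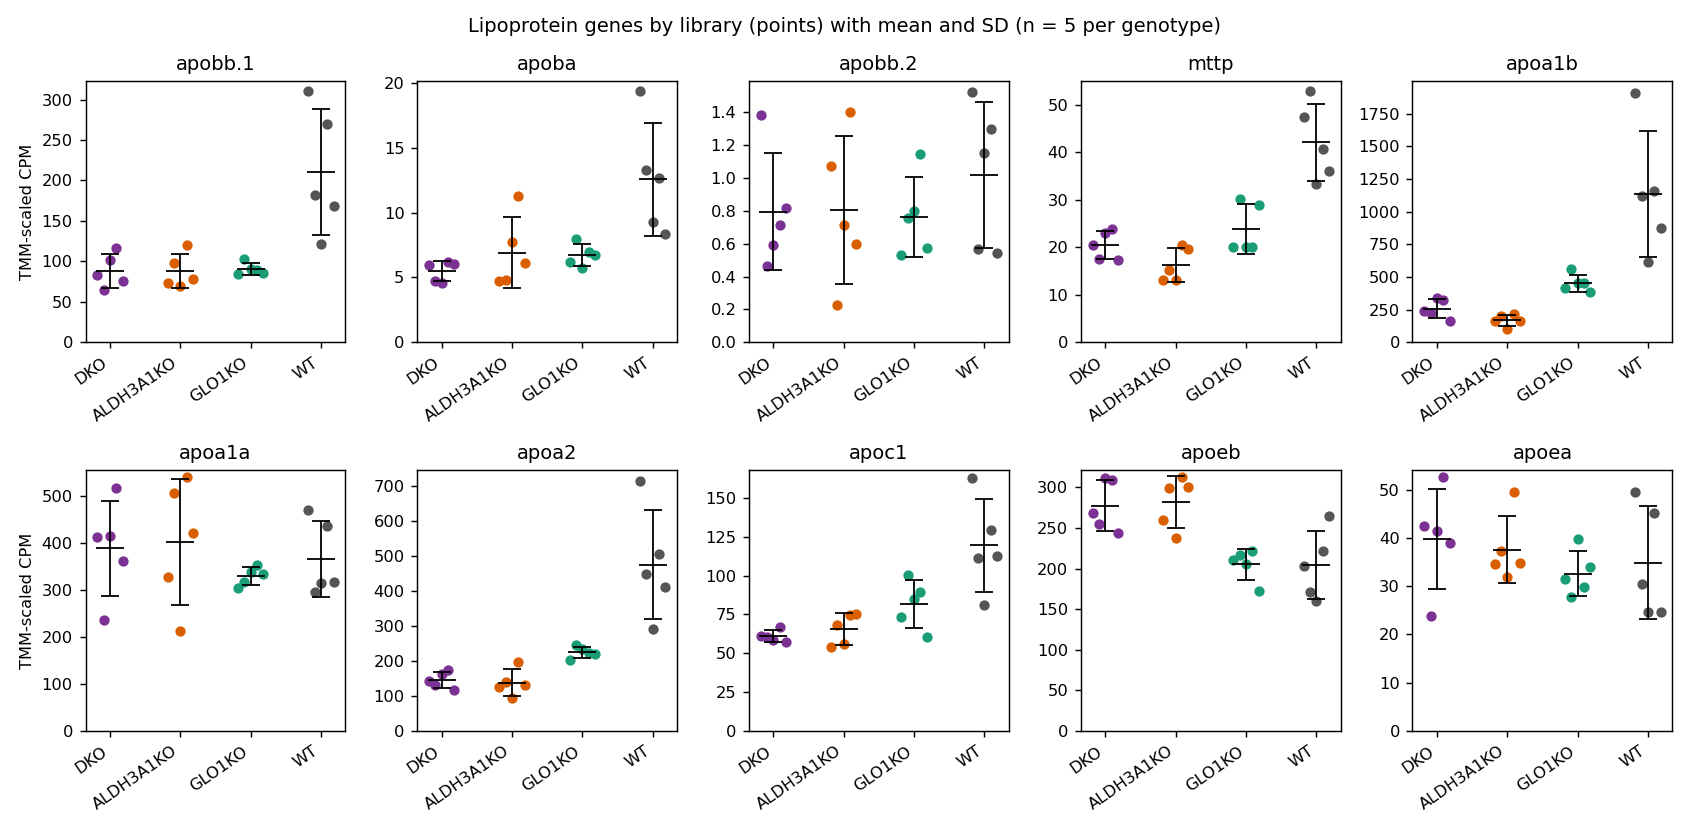
Levels of the 10 lipoprotein genes in TMM-scaled CPM (linear axes from 0), with 1 point per library and the mean with SD of each genotype (n = 5). For apobb.1, mttp, apoa1b and apoa2 all knockout points lie below the lowest wild type point, while apobb.2, apoa1a and apoea overlap between all genotypes.

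Apolipoprotein C-I is a small exchangeable protein that, in mammals, inhibits lipase and cholesteryl ester transfer. Its gene apoc1 (ENSDARG00000092170) was at 61.3, 60.6, 58.7, 67.1 and 57.1 CPM in DKO larvae, 54.1, 68.1, 55.8, 74.5 and 75.2 in ALDH3A1KO larvae, 73.5, 100.1, 84.7, 89.6 and 60.5 in GLO1KO larvae, and 163, 111, 81.2, 129 and 113 in wild type. DKO and ALDH3A1KO larvae did not overlap with wild type, and 3 GLO1KO libraries lay above the lowest wild type library. For apoc1 the log2 fold change over wild type was -0.97 in DKO larvae (SE 0.16, edgeR adjusted p = 6.76e-05), -0.87 in ALDH3A1KO larvae (SE 0.16, adjusted p = 0.000127) and -0.55 in GLO1KO larvae (SE 0.16, adjusted p = 0.0128). In a fit of GLO1KO larvae and wild type alone, the last of these missed the threshold (adjusted p = 0.0637).

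Apolipoprotein E is the ligand through which receptors of the LDL receptor family take up remnants. The level of apoeb (ENSDARG00000040295) was 268, 255, 312, 309 and 243 CPM in DKO larvae, 260.4, 299.5, 237, 313 and 301 in ALDH3A1KO larvae, 211, 217, 205, 222 and 173 in GLO1KO larvae, and 203, 172, 159.7, 221 and 265 in wild type. Wild type replicate 5 reached into the range of DKO and ALDH3A1KO larvae, whose libraries all lay above the remaining 4 wild type libraries. The log2 fold change of apoeb was 0.44 in DKO larvae (SE 0.12, edgeR adjusted p = 0.00376), 0.47 in ALDH3A1KO larvae (SE 0.12, adjusted p = 0.0018) and 0.01 in GLO1KO larvae (95% interval -0.24 to 0.26, adjusted p = 0.96). Tested against a fold of 1.2 rather than against no change, the value in DKO larvae missed the threshold (adjusted p = 0.0696). The level of apoea (ENSDARG00000102004) was between 23.8 and 52.7 CPM in DKO larvae, 31.9 and 49.5 in ALDH3A1KO larvae, 27.8 and 39.7 in GLO1KO larvae, and 24.6 and 49.4 in wild type, and did not pass the test in any of these comparisons (log2 fold change 0.19, 0.11 and -0.10 in DKO, ALDH3A1KO and GLO1KO larvae, edgeR adjusted p = 0.489, 0.684 and 0.77).

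As apoeb is also expressed outside liver and gut, markers of other cells are given beside it. Of 34 IDs on a list of macrophage and microglia markers, 30 were tested and 7 fell and 3 rose in DKO larvae. Over all tested genes, 26.4% fell and 23.9% rose in DKO larvae, 32% and 29.4% in ALDH3A1KO larvae, and 18.1% and 14.6% in GLO1KO larvae. The summed level of that list was 65.7 ± 6.59 CPM in DKO larvae, 64.9 ± 4.66 in ALDH3A1KO larvae, 60.7 ± 4.70 in GLO1KO larvae and 71.7 ± 7.10 in wild type (SD, n = 5 each), with highest libraries at 72.9, 68.8, 67.4 and 80.3 CPM in that order and ranges that overlapped between all genotypes. Of 20 epidermis markers, among them the keratin gene cyt1 (log2 fold change 0.96 in DKO larvae, SE 0.09, edgeR adjusted p = 1.44e-08), 14 rose and 1 fell in DKO larvae, 9 rose and 4 fell in ALDH3A1KO larvae, and 5 rose and 2 fell in GLO1KO larvae. Their summed level was 29730 to 35820 CPM in DKO larvae, 26650 to 31760 in ALDH3A1KO larvae, 23280 to 27500 in GLO1KO larvae and 20980 to 26390 in wild type. The genotypes in which the epidermis sum lay wholly above wild type were those in which apoeb rose. The marker ccl34b.1 also lay wholly above wild type in DKO and ALDH3A1KO larvae and overlapped in GLO1KO larvae, while slc7a7 fell in each. Of all tested genes, 15.2% lay wholly above wild type in DKO larvae and 20% in ALDH3A1KO larvae. The part of the epidermis or of macrophages and microglia in the rise of apoeb was not tested. No marker list had a gene at 0 in all 20 libraries.

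Counted by libraries rather than by the test, 6 of the 10 genes had every DKO library below every wild type library, against 19.2% of all tested genes. In ALDH3A1KO larvae 5 genes did so, against 23.1% of all tested genes, with apoba overlapping. In GLO1KO larvae 5 did so, against 12.5%, with apoc1 overlapping. No lipoprotein gene lay wholly above wild type in any knockout genotype, against 15.2% of all tested genes in DKO larvae, 20% in ALDH3A1KO larvae and 9.76% in GLO1KO larvae. The 10 genes together took 0.123 ± 0.021% of counts in DKO larvae, 0.119 ± 0.026% in ALDH3A1KO larvae, 0.144 ± 0.010% in GLO1KO larvae and 0.277 ± 0.087% in wild type (SD, n = 5 each).

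The coefficient of variation was lower in each knockout genotype than in wild type for 6 of the 10 genes (apobb.1, apoa1b, apoa2, apoc1, apoea and apoeb) and higher in at least 1 of them for the other 4. Among those 4, it was 26.2% in DKO larvae, 33.3% in ALDH3A1KO larvae and 5.76% in GLO1KO larvae for apoa1a, against 21.9% in wild type. That of apoa1b was 28.4% in DKO larvae, 25.9% in ALDH3A1KO larvae and 14.3% in GLO1KO larvae, against 42.5% in wild type. Within wild type, replicate 1 was the highest library for 8 of the 10 genes and replicate 3 the lowest for 7. Within ALDH3A1KO larvae, replicate 4 was highest for 9 and replicate 3 lowest for 6. None of the 6 genes that fell lost its call in any of the 3 comparisons when any 1 of the 20 libraries was left out. Without wild type replicate 1, the log2 fold change in DKO larvae was -1.87 for apoa1b, -1.51 for apoa2, -1.07 for apobb.1, -0.98 for apoba and -0.83 for apoc1.

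DKO larvae were then set against each single knockout, to ask what loss of one gene adds to loss of the other. Against ALDH3A1KO larvae none of the 10 genes passed edgeR's test, where 11.6% of all tested genes were lower and 11.1% higher. At an unadjusted p under 0.05, 0 were lower and 1, apoa1b, was higher, and neither DESeq2 nor limma-voom called any. None of the 10 had its DKO libraries wholly below or wholly above the ALDH3A1KO libraries, against 7.15% below and 7.1% above over all tested genes. For apoa1b the log2 fold change was 0.62 (95% interval 0.04 to 1.19, edgeR adjusted p = 0.117), and that of mttp was 0.33 (-0.03 to 0.69, adjusted p = 0.175). For apobb.1 it was 0.01 (-0.47 to 0.50, adjusted p = 0.98) and for apoa2 0.08 (-0.36 to 0.51, adjusted p = 0.835). Changes up to these limits were not excluded with 5 libraries a genotype.

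Against GLO1KO larvae, apoeb rose (log2 fold change 0.43, SE 0.12, edgeR adjusted p = 0.0231), where 4.52% of all tested genes were higher, and each of its 5 DKO libraries lay above each GLO1KO library, as for 4.48% of all tested genes. The call was lost without DKO replicate 4 (0.39, adjusted p = 0.0662) or without GLO1KO replicate 5 (0.38, adjusted p = 0.0677). No gene fell in this comparison by edgeR, where 6.82% of all tested genes did, yet 3 were lower at an unadjusted p under 0.05, and DESeq2 and limma-voom each called 3. They were apoa1b (-0.81, SE 0.27, edgeR adjusted p = 0.0642, DESeq2 adjusted p = 0.0249), apoa2 (-0.63, SE 0.21, edgeR adjusted p = 0.0575, DESeq2 adjusted p = 0.0259) and apoc1 (-0.42, SE 0.16, edgeR adjusted p = 0.094, DESeq2 adjusted p = 0.0321). DKO larvae lay wholly below GLO1KO larvae for apoa1b and apoa2, which held for 6.21% of all tested genes. Whether these genes differ between DKO and GLO1KO larvae thus depends on the tool and on the libraries in the fit, which all share 1 estimate of the spread. Adjusted p by edgeR passed for apoa2 without wild type replicate 1 (0.0298) or 3 (0.0334) or ALDH3A1KO replicate 3 (0.0438) or 4 (0.0391), for apoa1b without wild type replicate 1 (0.0353) or 3 (0.0437), and for apoc1 without wild type replicate 3 (0.048). The single knockouts were not tested against each other.

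The interaction asks whether the change in DKO larvae equals what the single knockouts add up to in log2 units. It uses the same wild type libraries as the comparisons over wild type and is not independent of them. For 4 of the 10 genes it was larger than 0, so that their level in DKO larvae was above that sum, against 18.7% of all tested genes with a higher and 16.9% with a lower value. The genes were apoa1b (1.94, SE 0.39, edgeR adjusted p = 0.00123), apobb.1 (1.23, SE 0.32, adjusted p = 0.00795), apoa2 (1.15, SE 0.29, adjusted p = 0.00605) and mttp (1.15, SE 0.24, adjusted p = 0.00129). The interaction of apoba was 0.58 (SE 0.33, edgeR adjusted p = 0.174) and that of apoc1 was 0.44 (SE 0.22, adjusted p = 0.129). Without ALDH3A1KO replicate 4 that of apoba was 0.83 (adjusted p = 0.0282), and without wild type replicate 3 that of apoc1 was 0.56 (edgeR adjusted p = 0.0322). No gene had an interaction below 0 at an unadjusted p under 0.05, nor by edgeR after adjustment, DESeq2 or limma-voom. Among these 4 genes, the knockout means of apobb.1 stood close together, at 88.2 CPM in DKO larvae, 87.5 in ALDH3A1KO larvae and 90.5 in GLO1KO larvae, against 211 in wild type. Those of apoa1b were further apart, at 258, 168.5 and 453 CPM in the same order, against 1136 in wild type. Positive interactions were not particular to lipoprotein genes. On a list of liver markers without lipoprotein genes, 36 of 46 tested had a higher interaction and 0 a lower one (median 1.15). For enterocyte markers these were 20 and 0 of 33 (median 1.05), beside a median of 0.51 for the 10 lipoprotein genes.

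Zebrafish keep pairs of paralogous apolipoprotein genes, and their ratio within a library does not depend on its depth or scaling. As the ratio also depends on transcript lengths, its differences between genotypes are given and not its sign. The log2 ratio of apoa1b to apoa1a counts was -0.77, -0.09, -0.30, -0.67 and -1.15 in DKO larvae, -1.04, -1.36, -1.05, -1.32 and -1.36 in ALDH3A1KO larvae, 0.44, 0.82, 0.42, 0.36 and 0.21 in GLO1KO larvae, and 2.02, 1.92, 0.97, 1.41 and 1.46 in wild type. The knockout genotypes did not overlap with wild type, nor DKO larvae with GLO1KO larvae. The mean ratio differed from wild type by -2.15 in DKO larvae (SE 0.27), -2.78 in ALDH3A1KO larvae (SE 0.20) and -1.11 in GLO1KO larvae (SE 0.22). In each case the two-sided exact permutation test gave p = 0.00794, the smallest that 5 against 5 libraries can give (adjusted over 20 ratio tests, p = 0.0397, all 5 libraries lower). Between DKO and GLO1KO larvae the difference was -1.05 (SE 0.21, exact permutation p = 0.00794, adjusted p = 0.0397). Between DKO and ALDH3A1KO larvae it was 0.63 (SE 0.20, exact permutation p = 0.0238, adjusted p = 0.0952) and missed the threshold.

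**Figure D3:**
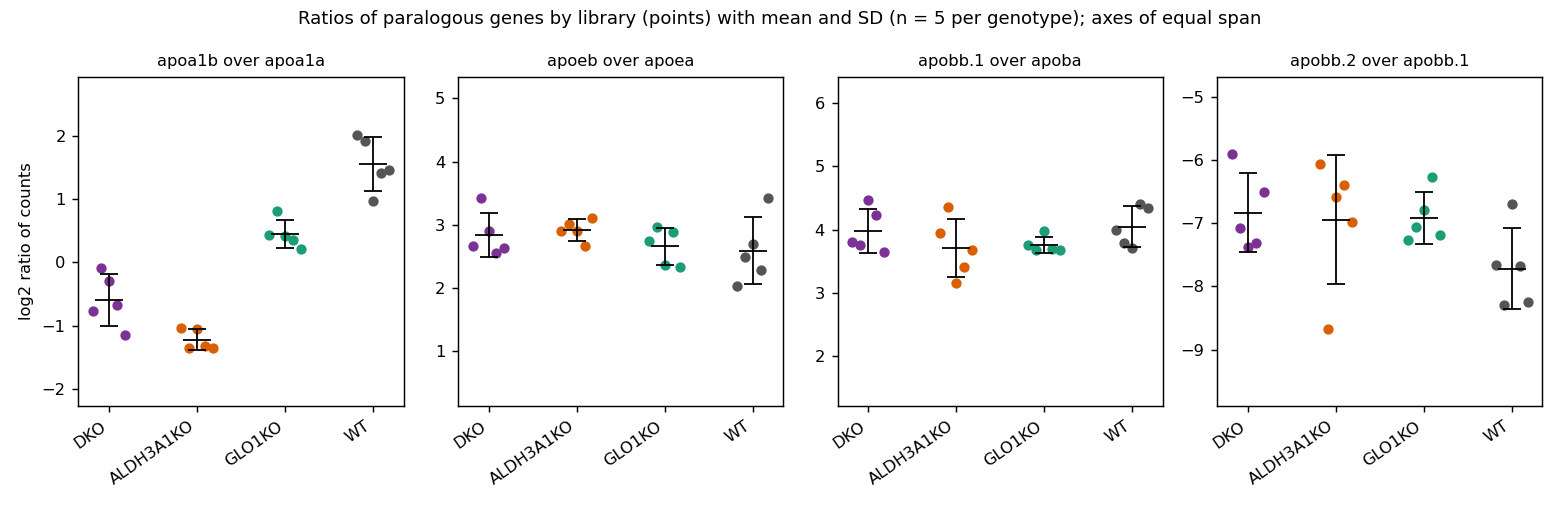
Log2 ratios of counts of paralogous genes in each library (points) with the mean and SD of each genotype (n = 5), on axes of equal span. For apoa1b over apoa1a the wild type points lie between 0.97 and 2.02 and all knockout points at or below 0.82, while the genotypes overlap for the other 3 pairs.

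The other pairs showed no such separation. The log2 ratio of apobb.1 to apoba, of apobb.2 to apobb.1 and of apoeb to apoea overlapped between genotypes, and none of their 15 comparisons passed the exact permutation test after adjustment (adjusted p between 0.185 and 0.865). For apoeb over apoea the mean was 2.84 ± 0.35 in DKO larvae, 2.92 ± 0.17 in ALDH3A1KO larvae, 2.66 ± 0.29 in GLO1KO larvae and 2.59 ± 0.53 in wild type (SD, n = 5 each), although apoeb passed the test in DKO and ALDH3A1KO larvae over wild type and apoea did not.

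Members sit in 2 groups of neighbouring apolipoprotein genes. In the gene order of RefSeq assembly GRCz12tu, apoeb, apoc1 and apoa2 lie in a run of 8 such genes, apoa4b.1, apoa4b.3, apoa4b.2, apoeb, apoc1, apoc4, apoa2 and apoc2, of which apoc4 was not tested. The run is not unbroken: another protein-coding gene lies between apoa4b.1 and apoa4b.3, and another between apoa4b.3 and apoa4b.2. In DKO larvae 6 of the 7 tested genes fell, with log2 fold changes of -1.40 for apoa4b.1, -1.74 for apoa4b.3, -1.45 for apoa4b.2, -0.97 for apoc1, -1.71 for apoa2 and -1.02 for apoc2, the activator of lipoprotein lipase (edgeR adjusted p between 4.66e-06 and 0.00347). The gene between apoa4b.2 and apoc1, apoeb, rose. Those 6 genes also fell in ALDH3A1KO and GLO1KO larvae, and apoeb, as given above, rose in ALDH3A1KO larvae and did not pass the test in GLO1KO larvae. Of all tested genes, 26.4% fell in DKO larvae, 32% in ALDH3A1KO larvae and 18.1% in GLO1KO larvae. Beside apoea lies apoa4a, whose log2 fold change was -0.09 in DKO larvae (SE 0.29, edgeR adjusted p = 0.822), -0.44 in ALDH3A1KO larvae (SE 0.29, adjusted p = 0.196) and -0.51 in GLO1KO larvae (SE 0.30, adjusted p = 0.188). The apoa4b copies are similar, and reads shared between them may have been counted for any of them.

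**Figure D4:**
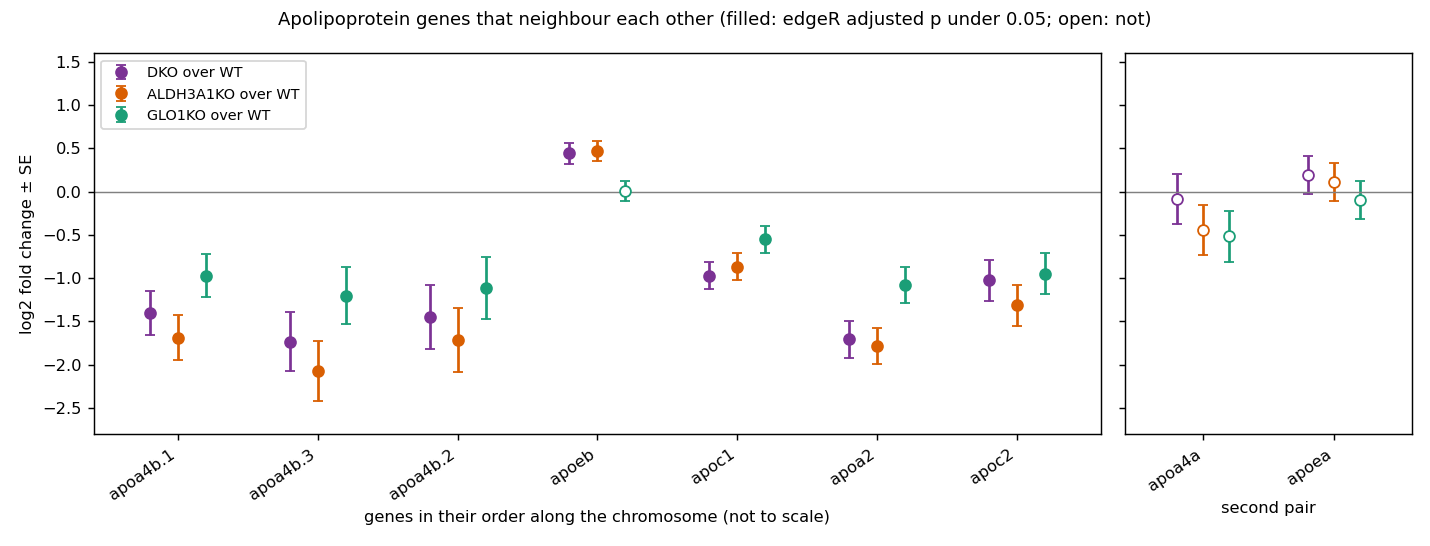
Log2 fold changes with SE of neighbouring apolipoprotein genes in DKO, ALDH3A1KO and GLO1KO larvae over wild type, in gene order and not to scale. Filled points passed edgeR's adjusted p of 0.05. The point of apoeb lies at or above 0 amid 6 genes of its run below 0, and neither gene of the second pair passed.

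Likeness of profiles over the 20 libraries was measured as the root mean square difference between standardised log2 CPM values, in SD units, where 0 is an identical profile. It is a description, and since the libraries share genotype and scaling, no test goes with it. The closest of 12465 candidate genes was serpinf2b for apoa1b (0.19), fetub for apoa2 (0.19), papss2 for mttp (0.19), cp, the gene of ceruloplasmin, for apobb.1 (0.27) and for apoba (0.47), and fgb, the fibrinogen beta chain gene, for apoc1 (0.35). The profiles of apoa1b and apoa2 differed by 0.21. Of the other 4 genes, the closest candidate was ctdsp2 for apoeb (0.41), spata20 for apoa1a (0.55), abcb9 for apoea (0.71) and prickle2 for apobb.2 (0.76). The candidates left out the 10 members, genes with clone names and genes averaging under 5 CPM over the 20 libraries. Among the members, apoa1a was closer to apoea (0.65) than abcb9 was.

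Genes of the tissues that make lipoproteins were lower in the same libraries. Beside the counts below, 26.4% of all tested genes fell and 23.9% rose in DKO larvae. The shares were 32% and 29.4% in ALDH3A1KO larvae, and 18.1% and 14.6% in GLO1KO larvae. Of 47 IDs on a list of liver markers without lipoprotein genes, 46 were tested, and 40 fell and 2 rose in DKO larvae (median log2 fold change -1.26), 42 fell and 0 rose in ALDH3A1KO larvae (-1.48), and 36 fell and 0 rose in GLO1KO larvae (-0.92). Among them gc, which encodes the vitamin D binding protein, fell by 2.79 in DKO larvae (SE 0.28, edgeR adjusted p = 3.04e-07). The summed liver markers ranged from 990.4 to 1245 CPM in DKO larvae, 682.6 to 1059 in ALDH3A1KO larvae, 1161 to 1364 in GLO1KO larvae and 1434 to 2922 in wild type, with no overlap between knockouts and wild type. Of 33 tested enterocyte markers, 23 fell and 1 rose in DKO larvae (median -0.96), 28 fell and 1 rose in ALDH3A1KO larvae (-1.27), and 20 fell and 0 rose in GLO1KO larvae (-0.63). Their sum ranged from 562 to 934.5 CPM in DKO larvae, 347 to 732 in ALDH3A1KO larvae, 749 to 964 in GLO1KO larvae and 948 to 1864 in wild type, where GLO1KO larvae overlapped with wild type. Summed levels of the 10 lipoprotein genes stood to those of the liver markers as 1.13 ± 0.17 in DKO larvae, 1.25 ± 0.16 in ALDH3A1KO larvae, 1.17 ± 0.091 in GLO1KO larvae and 1.35 ± 0.12 in wild type (SD, n = 5 each), ranges that overlapped. The lipoprotein sum includes apoa1a and apoeb, which did not fall (389 and 277 CPM in DKO larvae, 367 and 204 in wild type). The ratio thus mixes genes that fell with genes that did not. The part of the amount of liver and gut in the lower lipoprotein genes was not tested.

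Other genes of the pathway were read from lists that leave out the 10 members. Their counts stand beside shares over all tested genes of 26.4% lower and 23.9% higher in DKO larvae. These shares were 32% and 29.4% in ALDH3A1KO larvae, and 18.1% and 14.6% in GLO1KO larvae. Of 14 tested further apolipoprotein genes, 5 fell and 2 rose in each of DKO and ALDH3A1KO larvae, and 5 fell and 1 rose in GLO1KO larvae. The gene of apolipoprotein M, a lipocalin of high density lipoprotein, was among those that fell: apom was at 9.40 ± 2.43 CPM in DKO larvae, 9.20 ± 2.62 in ALDH3A1KO larvae, 12 ± 1.72 in GLO1KO larvae and 24.0 ± 7.31 in wild type (SD, n = 5 each; log2 fold change in DKO larvae -1.35, SE 0.24, edgeR adjusted p = 0.000118). The lipocalin gene apoda.1 rose in DKO larvae (0.46, SE 0.08, edgeR adjusted p = 1.97e-05) and in GLO1KO larvae (0.46, SE 0.08, adjusted p = 0.000108), and was at 0.09 in ALDH3A1KO larvae (SE 0.08, adjusted p = 0.288).

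Genes that act with mttp and apolipoprotein B in assembly and export were mixed. Of 15 tested, 5 fell and 4 rose in DKO larvae, 5 fell and 5 rose in ALDH3A1KO larvae, and 2 fell and 4 rose in GLO1KO larvae, with a median of 0, -0.06 and 0.03. Over all tested genes, 26.4% fell and 23.9% rose in DKO larvae, 32% and 29.4% in ALDH3A1KO larvae, and 18.1% and 14.6% in GLO1KO larvae. The cargo receptor gene surf4 (ENSDARG00000035131), which in mammals serves export of apolipoprotein B particles, fell by 0.58 in DKO larvae (SE 0.11, edgeR adjusted p = 0.000102), and the vesicle coat gene sec24d fell by 0.65 (SE 0.12, adjusted p = 5.77e-05). A further surf4 ID, ENSDARG00000104647, is on the list, and its values are not given here. In ALDH3A1KO larvae surf4 was at -0.75 and sec24d at -1.02 (edgeR adjusted p = 2.21e-06 and 9.25e-08). In GLO1KO larvae they were at -0.32 and -0.56 (edgeR adjusted p = 0.0254 and 0.000837). The gene sec23b, of the same coat, was at 0.35 in DKO larvae (SE 0.14, edgeR adjusted p = 0.0451), a call lost in 11 of the 20 fits without 1 library and with library totals alone (0.19, adjusted p = 0.285). In GLO1KO larvae sec23b was at 0.47 (SE 0.14, edgeR adjusted p = 0.016), a call kept in all 20 fits without 1 library. In ALDH3A1KO larvae it was at -0.09 (SE 0.14, edgeR adjusted p = 0.584). The summed level of these 15 genes was 630.4 ± 14.2 CPM in DKO larvae and 607 ± 13.4 in wild type, against 1286 ± 244 and 2603 ± 833 CPM for the 10 lipoprotein genes (SD, n = 5 each).

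Of 15 tested genes of lipases and remodelling proteins, 5 fell and 2 rose in DKO larvae, 9 fell and 0 rose in ALDH3A1KO larvae, and 6 fell and 2 rose in GLO1KO larvae. The gene of the lipoprotein lipase inhibitor angptl4 rose by 0.70 in DKO larvae (SE 0.10, edgeR adjusted p = 3.66e-06) and by 0.53 in GLO1KO larvae (SE 0.10, adjusted p = 0.000347). It was at 0.14 in ALDH3A1KO larvae (SE 0.10, adjusted p = 0.217). Of 23 tested genes of receptors and efflux transporters, 7 fell and 1 rose in DKO larvae, with a median of -0.04. Over all tested genes, 26.4% fell and 23.9% rose in that comparison. These shares were 32% and 29.4% in ALDH3A1KO larvae over wild type, and 18.1% and 14.6% in GLO1KO larvae. Among the receptor and efflux genes that fell was the cholesterol exporter gene abca1b (-0.35, SE 0.10, edgeR adjusted p = 0.00414).

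Of 32 tested genes of lipid uptake and esterification, 18 fell and 2 rose in DKO larvae, 18 fell and 5 rose in ALDH3A1KO larvae, and 16 fell and 1 rose in GLO1KO larvae. Shares over all tested genes were 26.4% lower and 23.9% higher in DKO larvae, and 32% and 29.4% in ALDH3A1KO larvae. They were 18.1% and 14.6% in GLO1KO larvae. The fatty acid transporter gene slc27a4 was at 34.3% of wild type in DKO larvae (log2 fold change -1.54, SE 0.18, edgeR adjusted p = 3.52e-07), 35.5% in ALDH3A1KO larvae (-1.49, SE 0.18, adjusted p = 2.06e-07) and 70.8% in GLO1KO larvae (-0.50, SE 0.17, adjusted p = 0.0285). The call in GLO1KO larvae was lost in 6 of the 20 fits without 1 library, those without GLO1KO replicate 1, 2, 3 or 4 or wild type replicate 2 or 3 (log2 fold change -0.49 to -0.43). The glycerol phosphate acyltransferase gene gpat4 rose in all 3, by 0.46, 0.81 and 0.38 on the log2 scale (SE 0.07 each, edgeR adjusted p between 1.33e-09 and 0.00029).

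On a list of regulators known for liver and gut lipid genes, 34 were tested. Of these, 22 fell and 5 rose in DKO larvae (median -0.58), 24 fell and 5 rose in ALDH3A1KO larvae (-0.88), and 19 fell and 4 rose in GLO1KO larvae (-0.49). Shares over all tested genes were 26.4% lower and 23.9% higher in DKO larvae, and 32% and 29.4% in ALDH3A1KO larvae. They were 18.1% and 14.6% in GLO1KO larvae. The nuclear receptor gene hnf4a, which in mammals acts on apolipoprotein and mttp genes, had log2 fold changes of -1.08 in DKO larvae (SE 0.18, edgeR adjusted p = 2.39e-05), -1.21 in ALDH3A1KO larvae (SE 0.18, adjusted p = 3.35e-06) and -0.73 in GLO1KO larvae (SE 0.17, adjusted p = 0.00294). The sterol regulatory factor gene srebf1 fell by 1.12 in DKO larvae (SE 0.19, edgeR adjusted p = 5.78e-05) and onecut1 by 1.03 (SE 0.12, adjusted p = 1.49e-07). In contrast, nr2f1 (ENSDARG00000052695) lay wholly above wild type in all 3 knockout genotypes. It rose by 0.33 in DKO, 0.37 in ALDH3A1KO and 0.22 in GLO1KO larvae (edgeR adjusted p = 3.09e-05, 4.3e-06 and 0.00441). The stress-responsive factor gene cebpb rose by 0.97 in DKO larvae (SE 0.24, edgeR adjusted p = 0.00251) and by 0.89 in GLO1KO larvae (SE 0.24, adjusted p = 0.00876), and was at 0.02 in ALDH3A1KO larvae (SE 0.24, adjusted p = 0.942), a value whose sign depends on the scaling (-0.10 with library totals).

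**Figure D5:**
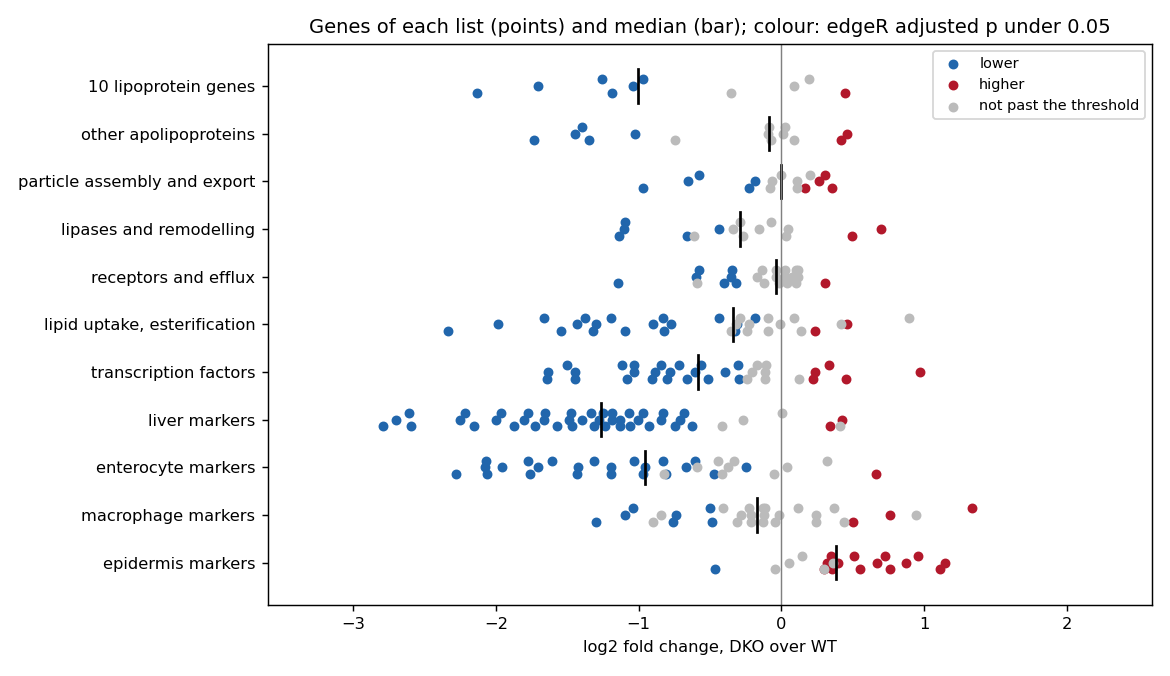
Log2 fold changes in DKO larvae over wild type for genes of each list (points, coloured where edgeR's adjusted p is under 0.05) with the median as a bar. The medians of the 10 lipoprotein genes (-1), liver markers (-1.26) and enterocyte markers (-0.96) lie left of 0, that of assembly and export genes at 0, and that of epidermis markers at 0.38.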

How the data were processed

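Whole-number counts per gene of 20 libraries (4 genotypes, 5 each) were deposited by the authors. Per the submitters' processing notes they were made with featureCounts 2.0.3 on build GRCz11. The sources used here name no aligner, annotation or strand setting, so reads of genes that overlap or lie antisense may be misassigned. Per the labels' protocols, libraries were strand-specific mRNA libraries.

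Of 32520 gene IDs, 29201 matched a symbol and 6314 shared it with a further ID, in which case the ID is printed. List symbols were matched exactly, then through RefSeq synonyms (assembly GRCz12tu), then by stem. The members and lists were chosen with earlier results of these data known. Named list genes are those with the smallest adjusted p in DKO larvae over wild type among genes averaging 5 CPM or more in the higher genotype (4 per list, 2 per marker list), plus the gene that rose most, of which the text gives a part; apoa4b.2, apoc2 and apoa4a are named for their place beside members.

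One model over all libraries was fitted with edgeR 4.0.16 (R 4.3.3): filterByExpr by genotype (22234 genes, 99.97% of counts), TMM factors, robust quasi-likelihood F-test, two-sided, Benjamini-Hochberg over all tested genes, threshold 0.05. The biological coefficient of variation was 0.13, with 16 residual degrees of freedom. Intervals are 95%. CPM values were computed from the deposited counts. Ratios of paralogs added 0.5 to each count; these tests were added after the files were opened. Alternatives were other scaling factors and filters, DESeq2 1.42.0, limma-voom (limma 3.58.1), a fit that was not robust, the compared genotypes alone, a fold threshold of 1.2, the replicate number as a block, and each library left out. The scripts were tested on simulated data. Figures were drawn with matplotlib 3.10.9.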

Additional observations from a re-analysis of the deposited data

Results flagged for a closer look

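For 4 of the lipoprotein genes the change that went with loss of glo1 differed between larvae that also lacked aldh3a1 and larvae that did not. A shift in the wild type libraries alone would enter both this difference and the changes over wild type, and was not tested. The difference, tested as the interaction, was 1.94 on the log2 scale for apoa1b, 1.23 for apobb.1, 1.15 for apoa2 and 1.15 for mttp (edgeR adjusted p between 0.00123 and 0.00795). Of all tested genes, 18.7% had a higher and 16.9% a lower interaction. It was also higher for 36 of 46 tested liver markers and 20 of 33 tested enterocyte markers, and lower for 0 of either. Without aldh3a1, loss of glo1 went with a log2 change of 0.62 in apoa1b, 0.01 in apobb.1, 0.08 in apoa2 and 0.33 in mttp, none of which passed the test. With aldh3a1 intact, the changes were -1.33, -1.22, -1.08 and -0.82 in the same order, all past the threshold.

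The summed liver markers were lowest in ALDH3A1KO replicate 3, at 682.6 CPM, far from the other 4 libraries of that genotype. It was the one such library among 56 groups examined, where chance gives about 1 in 20. The same library was lowest of its genotype for 6 of the 10 lipoprotein genes, and the calls against wild type held without it.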

How the results depend on the processing

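In the 3 comparisons with wild type, the 6 lower genes stayed 6 under every alternative that was run except a fold threshold of 1.2 and the fit on the compared genotypes alone, which lost apoc1 in GLO1KO larvae (adjusted p = 0.0887 and 0.0637), and matching by symbol alone, which leaves out apoba and gave 5. With the fold threshold 0 genes rose in DKO larvae over wild type and 0 over GLO1KO larvae. Genes lower in DKO larvae than in GLO1KO larvae numbered 3 with library totals, DESeq2, limma-voom or the compared genotypes alone and 2 without robust estimation. Leaving out each library gave 0 to 3 for these, 0 to 1 for genes higher in that comparison, and 4 to 5 for the interaction.

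Some values near 0 changed sign. With upper quartile factors, apoeb was at -0.011 in GLO1KO larvae, 0.005 in DKO over ALDH3A1KO larvae and 0.015 in the interaction, apobb.2 at 0.018 in DKO over ALDH3A1KO larvae, and in ALDH3A1KO larvae dgat1 (ENSDARG00000103503) at -0.036 and cebpb at -0.029. With library totals, which shift the median of all genes by -0.14 in DKO, -0.11 in ALDH3A1KO and -0.11 in GLO1KO larvae, apoa1a was at -0.071 in DKO larvae, apoeb at -0.096 in GLO1KO larvae and 0.024 in the interaction, apobb.1 at -0.039 in DKO over ALDH3A1KO larvae, alpi.1 at -0.044 in GLO1KO larvae, and apoda.1, dgat1 and cebpb at -0.010, -0.095 and -0.097 in ALDH3A1KO larvae. With a filter of 1 CPM, dgat1 was at -0.005 and apoeb at -0.003 in those comparisons. In DKO over ALDH3A1KO larvae limma-voom gave 0.071 for apobb.2 and 0.026 for apoa1a. Of calls over wild type and over GLO1KO larvae, the percentage that was higher was 23.7, 36, 21.9 and 22.8 with library totals, against 47.5, 47.9, 44.6 and 39.8 with TMM.

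Leaving out 1 library turned the sign of apoa1a in DKO larvae (-0.04 to 0.219), apoea (-0.001 to 0.27), dgat1 (-0.031 to 0.077) and cebpb (-0.18 to 0.15) in ALDH3A1KO larvae, and apoea (-0.199 to 0.062) and apoeb (-0.066 to 0.121) in GLO1KO larvae. It did so in DKO over ALDH3A1KO larvae for apobb.1 (-0.11 to 0.17), apobb.2 (-0.31 to 0.30), apoa1a (-0.21 to 0.10), apoa2 (-0.036 to 0.262), apoea (-0.037 to 0.222) and apoeb (-0.081 to 0.034), in DKO over GLO1KO larvae for apobb.1 (-0.156 to 0.059) and apobb.2 (-0.23 to 0.26), and in the interaction for apoa1a (-0.054 to 0.242) and apoeb (-0.146 to 0.042). Among pathway and marker genes tested in this way, leaving out 1 of the 20 libraries lost the call over wild type of sec23b (11 fits), stab2 (5) and slc7a7 (4) in DKO larvae, stab2 (6), svip (1) and abca1b (1) in ALDH3A1KO larvae, and svip (9), lipg (7), slc27a4 (6), ctrb.2 (3), surf4 (2), fabp10a (2) and slc7a7 (1) in GLO1KO larvae. Ratios that changed sign when 1 library was left out were apobb.1 over apoba in DKO larvae (-0.192 to 0.021) and apoeb over apoea in GLO1KO larvae (-0.066 to 0.281). The ratio of apobb.2 to apobb.1 also changed sign in DKO larvae against ALDH3A1KO (-0.33 to 0.32) and GLO1KO larvae (-0.15 to 0.24). The cause was not tested.

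Over all genes, calls in DKO larvae that were higher numbered 2532 with library totals and 2108 with the fold threshold, against 5319; in DKO over GLO1KO larvae they were 604, 1602 with limma-voom and 145 with the fold threshold, against 1004. Other counts over all genes that moved by more than 1.5 times were, with the fold threshold, 3499 higher in ALDH3A1KO larvae (against 6527), 1790 lower and 712 higher in GLO1KO larvae (4033 and 3253, and 1607 higher with library totals), 255 lower and 890 higher in DKO over ALDH3A1KO larvae (2581 and 2458), 195 lower in DKO over GLO1KO larvae (1517), and 1356 lower and 2521 higher for the interaction (3748 and 4157). Leaving out DKO replicate 4 or 5 or GLO1KO replicate 3 or 5 gave 749 to 1001 lower genes in DKO over GLO1KO larvae, leaving out DKO replicate 4 or 5 or GLO1KO replicate 5 gave 553 to 599 higher ones, and without DKO replicate 3 there were 1472 lower in DKO over ALDH3A1KO larvae. The replicate numbers did not pair the libraries (median correlation of deviations 0, from -0.15 to 0.23, over 30 same-numbered pairs). With the replicate number as a block the lower genes were 6, 6 and 6 over wild type and the interaction 4, while cebpb in ALDH3A1KO larvae was at -0.001 and apobb.2 in DKO over ALDH3A1KO larvae at 0.061. Depth limits apobb.2, at 8 to 60 counts a library.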

Other observations

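Markers of the exocrine pancreas, which makes digestive enzymes, were mostly lower than in wild type in larvae without aldh3a1. The shares of all tested genes that fell and rose were 26.4% and 23.9% in DKO larvae and 32% and 29.4% in ALDH3A1KO larvae. They were 18.1% and 14.6% in GLO1KO larvae. Of 23 tested exocrine pancreas markers, 17 fell and 0 rose in DKO larvae, 21 fell and 0 rose in ALDH3A1KO larvae, and 1 fell and 0 rose in GLO1KO larvae. Their summed level was 328 ± 93.9 CPM in DKO larvae, 214 ± 82.8 in ALDH3A1KO larvae, 588 ± 118 in GLO1KO larvae and 821 ± 342 in wild type (SD, n = 5 each). In GLO1KO larvae the median log2 fold change of the markers over wild type was -0.44. Set directly against GLO1KO larvae, DKO larvae had 1 of the 23 markers lower and 1 higher (median -0.77), against 6.82% and 4.52% of all tested genes. The chymotrypsin gene ctrb.2 fell by 2.59 in DKO larvae over wild type (SE 0.44, edgeR adjusted p = 0.000121). Against the direction of most enterocyte markers, the intestinal alkaline phosphatase gene alpi.1 rose by 0.66 in DKO larvae (SE 0.13, edgeR adjusted p = 0.000138) and by 0.60 in ALDH3A1KO larvae (SE 0.13, adjusted p = 0.00029).

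Other lipid genes, outside the naming rule and chosen after their values were seen, also fell in each knockout genotype. Genes of the same lists also rose, among them gpat4 in all 3 genotypes. In DKO larvae and in wild type dgat2 averaged under 5 CPM, the minimum of the naming rule. The log2 fold change of dgat2, a triglyceride synthesis enzyme, was -1.99 in DKO larvae (SE 0.29, edgeR adjusted p = 3.63e-06), -3.04 in ALDH3A1KO larvae (SE 0.31, adjusted p = 1.46e-08) and -1.74 in GLO1KO larvae (SE 0.28, adjusted p = 8.69e-05). That of npc1l1, the intestinal cholesterol transporter, was -2.34 (SE 0.48, adjusted p = 0.000435), -3.29 (SE 0.52, adjusted p = 1.81e-05) and -1.89 (SE 0.46, edgeR adjusted p = 0.00402) in the same order. The gene lcat, whose product esterifies cholesterol on high density lipoprotein with apolipoprotein A-I as its activator, was at 46.5% of wild type in DKO larvae, 15.9% in ALDH3A1KO larvae and 57.1% in GLO1KO larvae (edgeR adjusted p between 3.42e-08 and 0.0153).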
